A study of Mus musculus with 2 samples.

Results

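The genes described here are 7 members of the high mobility group (HMG) of chromatin proteins, Hmgb1, Hmgb2, Hmgb3, Hmgn1, Hmgn2, Hmgn3 and Hmga1, together with Dek. They were taken as all gene spots whose name in the scanner files equals one of these 8 symbols, which gave 14 probes of 41174 on the array and 8 genes of 27975. They were chosen by their log2 ratio in these same arrays, so their values in the comparison are a description and no test of it. All 8 genes, and 12 of their 14 probes, passed the filter on dim probes. 1 of the 8, Hmga1, was not higher.

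Total RNA, amplified before labelling, came from primary keratinocytes of the epidermis of FVB/NJ mice at day 20 after birth. Wild-type mice were compared with K14-caSmad1 mice, transgenic animals that overexpress a constitutively active Smad1, the transcription factor that carries signals of bone morphogenetic proteins. K14 stands for keratin 14, whose promoter is active in basal keratinocytes and the outer root sheath of the hair follicle, so the transgene acts where that promoter is on. The labels give neither the founder line nor the number or sex of the animals, and they do not say whether the RNA of several animals was pooled. The 2 arrays are labelled biological replicates 1 and 2, each with wild-type RNA in the Cy3 channel and K14-caSmad1 RNA in the Cy5 channel, so dye and genotype cannot be told apart. For 12287 probes with a single spot, the SD of the difference in log2 ratio between the arrays was 0.0946, less than the 0.107 that the spread among spots of 94 repeated probes predicts. The arrays were therefore counted as 1 sample. Values are given for each array without an error between animals, and limma's p-values measure only how well the arrays repeated. Smad1 itself, which the transgene encodes, had a log2 ratio of 0.27 (0.28 and 0.27 on replicates 1 and 2). Whether its probe reads the transcript of the transgene was not tested, so this value does not measure how strongly the transgene was expressed. Fewer cells of a type and less RNA per cell cannot be told apart in such RNA.

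HMG proteins are abundant, small non-histone proteins that shape chromatin in nearly every nucleus. The HMGB proteins bend DNA through HMG boxes and, when released from cells, act as alarm signals. The HMGN proteins bind the nucleosome itself and compete with linker histone H1, and the HMGA proteins grip AT-rich DNA with AT hooks. DEK is an unrelated chromatin protein and histone chaperone, first known from a leukaemia fusion, that is abundant in proliferating cells and holds back keratinocyte differentiation when overproduced.

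The array reads each gene through 60-base probes. The first 30 bases of most of those that carry the values below are shown 5′ to 3′, in lower case except for a run shared by a probe named Hmgb1 and a probe named Nup85, which is in capitals.
Dek, A_51_P298355: agcatcaagtgtaaccagagttggtgtgga
Dek, A_52_P477709: aagcaaactaaatgccctgaaattctgtca
Hmgn1, A_51_P468173: ccctgtcagaactgtgatgtctgtggtcat
Hmgb2, A_51_P499940: agtgcagctcaacattagcttcagtataaa
Hmgb1, A_52_P324336: CTGGAGGGTTCCTGAGAGAAGATGAGGACA
Hmgb1, A_51_P269554: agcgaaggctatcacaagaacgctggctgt
Nup85, A_51_P201532: gaaggctcaCTGGAGGGTTCCTGAGAGAAG
Hmgn3, A_52_P32369: cctcttatggtgatgttttttggaaatttc
Hmgb3, A_51_P138548: ggcatccatttagcttcaggttgtcctgtg
Hmga1, A_51_P483118: cccagcctggggcttcctccctggtttctt
The brightest probe named Hmgb1 was designed on a cDNA (BC064790) and not on the Hmgb1 reference transcript NM_010439. It shared a run of 49 bases with the probe of Nup85, a nucleoporin gene, and matched it at 50 of the 51 positions where they overlap. No other member probe shared more than 15 bases with a probe of another gene, the longest such runs being those of Dek A_51_P298355 and Hmgb2 A_51_P499940 (15 bases each). The brightest Hmgb1 probe is therefore reported apart from the NM_010439 probes, and which gene's transcript it reads was not tested.

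In K14-caSmad1 keratinocytes 4 of the 8 genes were at least 2-fold higher on both arrays: Dek, Hmgn2, Hmgn1 and Hmgb2. Of all 11752 genes tested, 480 (4.08%) were that much higher and 1153 (9.81%) that much lower. Since the genes were picked for their rise in this comparison, their count says nothing beyond that choice. Hmgb1, Hmgn3 and Hmgb3 were higher by less than 2-fold, and Hmga1 was level. For 7 of the 8 genes both K14-caSmad1 levels lay above both wild-type levels, as they did for 34.3% of all genes tested. The median log2 ratio of the 8 genes was 1.13, against -0.03 for all genes tested.

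**Figure D1:**
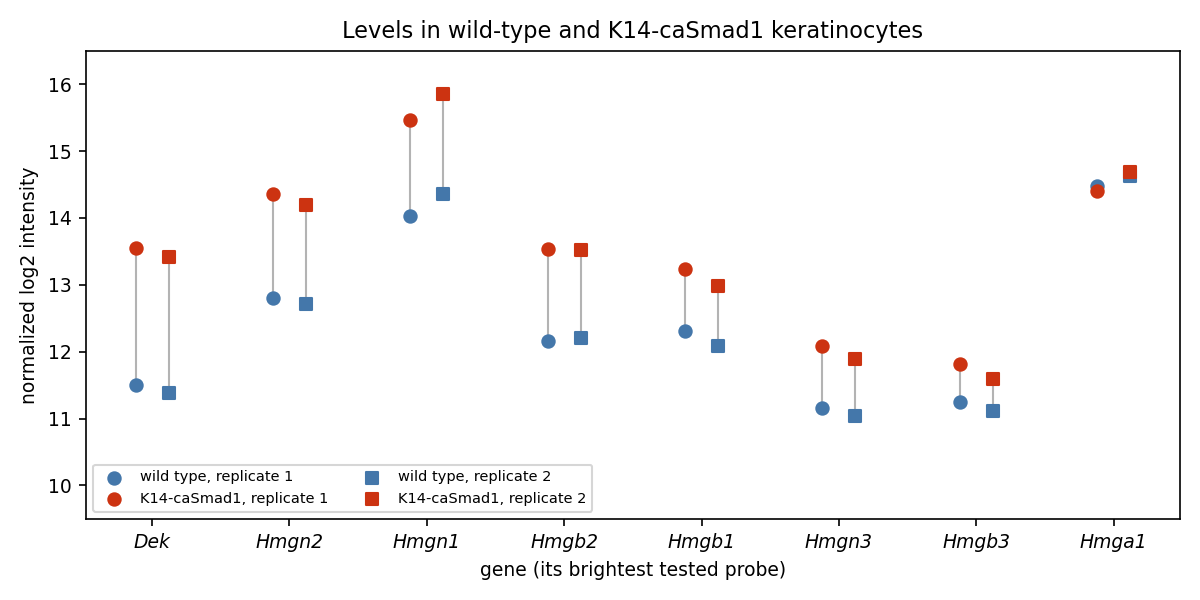
Normalized log2 intensity (vertical axis) of the brightest tested probe of each gene in wild type (blue) and K14-caSmad1 (red), with replicate 1 as circles, replicate 2 as squares and a grey line joining the channels of an array. The lines are longest for Dek, from 11.50 to 13.55 on replicate 1, and the channels overlap for Hmga1. Heights are not comparable between genes because each probe binds differently.

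Dek differed most. Its probe A_51_P298355 lies at chr13:47180478-47180537 (mm9 build, minus strand), from base 2090 of transcript NM_025900. Its normalized log2 level was 11.50 and 11.38 in wild type on replicates 1 and 2, and 13.55 and 13.42 in K14-caSmad1. Both K14-caSmad1 levels thus lay far above both wild-type levels, with log2 ratios of 2.05 and 2.04, a 4.13-fold difference. This put Dek at rank 12 of 11752 genes. A second probe, A_52_P477709, lies nearer the 5′ end of the same transcript, from base 711, at chr13:47193574-47193633. It gave 1.48 and 1.45 as log2 ratios, with levels of 9.44 and 9.30 in wild type and 10.92 and 10.75 in K14-caSmad1. The probes differ in height and in ratio, but each is above background in both channels on both arrays. With the scanner's own processed signals they read alike, at mean log2 ratios of 2.26 and 2.27.

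The nucleosome-binding genes Hmgn1 and Hmgn2 came next. Hmgn2, read by a single probe, stood at 12.80 and 12.71 in wild type and at 14.36 and 14.19 in K14-caSmad1 on replicates 1 and 2. Its log2 ratios were 1.55 and 1.48, or 2.86-fold. Hmgn1 (A_51_P468173, chr16:96343494-96343553, minus strand, from base 841 of NM_008251) stood at 14.03 and 14.36 in wild type and at 15.46 and 15.86 in K14-caSmad1. Its log2 ratios of 1.44 and 1.50, or 2.77-fold, overlapped those of Hmgn2, so that the order of these genes is not settled. Hmgn1 was among the brightest features, and no gene spot on either array was saturated. A further Hmgn1 probe, A_51_P134408, built on a cDNA of the cerebellum (AK080436), was not well above background in any channel and was not tested. The array also holds Hmgn5, a member of the same family that was not among the 8 genes. Hmgn5 read 1.26 on replicate 1 and 1.49 on replicate 2 as log2 ratios, and 0.68 at its other probe.

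Hmgn3, the HMGN gene known from the eye and pancreatic islets, was higher by less than 2-fold. Its probe annotated to transcript variant 2 (A_52_P32369, chr9:83003794-83003853, minus strand, from base 575 of NM_175074) had levels of 11.15 and 11.04 in wild type and 12.09 and 11.89 in K14-caSmad1. The log2 ratios were 0.94 and 0.84. A probe annotated to another transcript model (A_51_P422183, chr9:83004349-83004408) cleared the background in K14-caSmad1 alone. It read at least 1.29-fold higher in K14-caSmad1, but it passed the filter through that genotype alone, so its direction adds no support.

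Among the HMGB genes the difference was largest for Hmgb2, the form associated with proliferating cells. Its probe A_51_P499940 (chr8:59992990-59993049, plus strand, from base 852 of NM_008252) had levels of 12.16 and 12.20 in wild type and 13.54 and 13.52 in K14-caSmad1. The channels did not overlap, and the log2 ratios were 1.37 and 1.32, or 2.55-fold. A probe nearer the 5′ end, from base 371 (A_52_P485417, chr8:59991926-59991985), was well above background on only 1 K14-caSmad1 array and in no wild-type channel, and it was not tested.

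Hmgb1, the most widely expressed HMGB gene and the alarm signal of damaged cells, was read by 3 tested probes. The NM_010439 probe A_51_P269554 starts at base 1793, and the file places 25 bases of it, at chr5:149858786-149858810 on the minus strand. Its levels were 10.65 and 10.41 in wild type and 11.45 and 11.21 in K14-caSmad1, with log2 ratios of 0.80 on both arrays (1.74-fold). The other NM_010439 probe, A_52_P323044 (chr5:149859674-149859733), cleared the background in K14-caSmad1 alone and read at least 1.41-fold higher. The brightest probe, A_52_P324336 (chr5:149864570-149864629), whose sequence overlaps the Nup85 probe, had log2 ratios of 0.92 and 0.91. The Nup85 probe itself read 1.03 and 1.08. A_52_P323044 passed the filter through K14-caSmad1 alone, so its direction adds no support, and the gene read by the brightest probe is unsettled. The value of 0.80 from the NM_010439 probe A_51_P269554 does not rest on the shared sequence. With that probe in place of the brightest, a choice made after the sequences were compared, the median over the 8 genes was 1.12.

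Hmgb3, known from blood stem cells and early development, had the smallest difference among those that were higher. Its probe A_51_P138548 (chrX:68813504-68813563, plus strand, from base 1330 of NM_008253) stood at 11.25 and 11.12 in wild type and 11.81 and 11.59 in K14-caSmad1. The log2 ratios were 0.55 and 0.47, or 1.43-fold.

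Hmga1, the AT-hook gene of embryonic and transformed cells, was equally bright in both genotypes. Its single probe (A_51_P483118, chr17:27700543-27700602, plus strand, from base 1951 of NM_016660) had levels of 14.48 and 14.63 in wild type and 14.40 and 14.68 in K14-caSmad1. The levels of the genotypes overlapped. The log2 ratios were -0.08 on replicate 1 and 0.04 on replicate 2, and the sign of the mean (-0.02) turned with the processing, reaching 0.22 with median centring. At a 50.7th percentile Hmga1 sat in the middle of all genes tested. Its relative Hmga2 was on the array and did not pass the filter on dim probes.

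**Figure D2:**
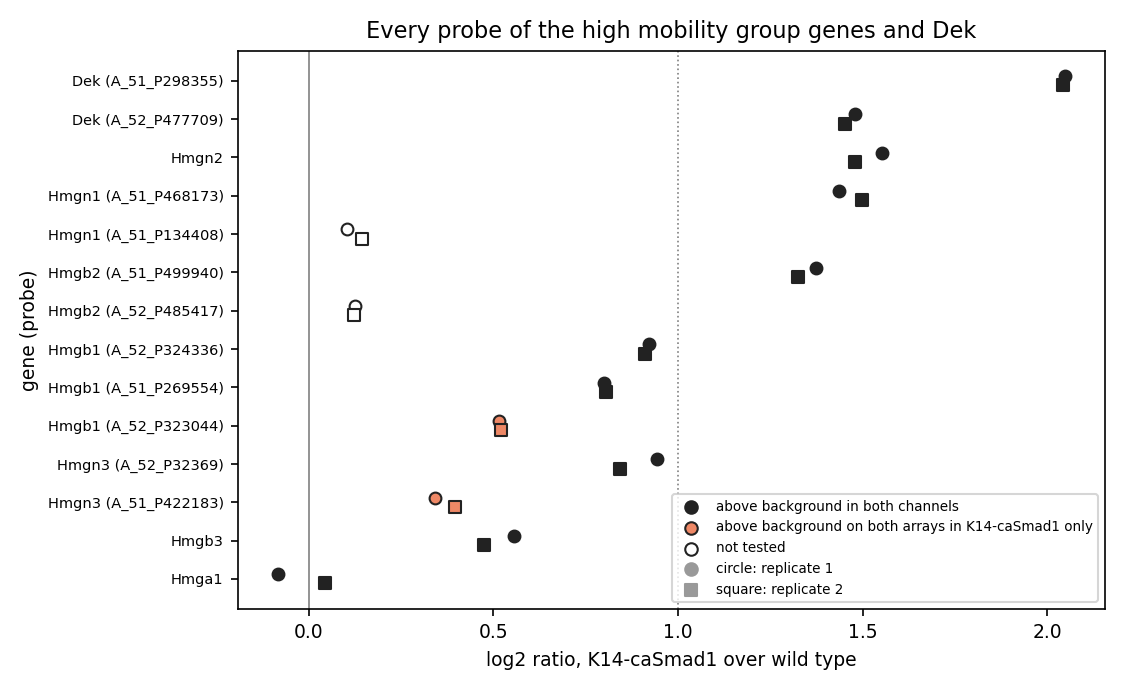
Log2 ratio of K14-caSmad1 over wild type (horizontal axis) for each of the 14 probes, replicate 1 as circles and replicate 2 as squares. Black probes were above background in both channels on both arrays, orange ones on both arrays in K14-caSmad1 only, and white ones were not tested, with a dotted line at 2-fold. Dim probes lie closer to 0 than the bright probe of the same gene.

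In order of their log2 ratio the genes ran Dek, Hmgn2, Hmgn1, Hmgb2, Hmgb1, Hmgn3, Hmgb3 and Hmga1. The ratios of the arrays overlapped between Hmgn2 and Hmgn1 and between Hmgb1 and Hmgn3, and for no other pair of neighbours. The place of Hmgb1 rests on the probe that overlaps the Nup85 probe. At the NM_010439 probe, with 0.80 on both arrays, Hmgb1 came after Hmgn3 (0.94 and 0.84) and the ratios of these genes did not overlap. Within a probe that passed the filter the arrays differed by at most 0.127, for Hmga1. Dim probes gave lower ratios than bright ones of the same gene in all 5 genes with more than 1 probe, namely Dek, Hmgb1, Hmgb2, Hmgn1 and Hmgn3. The other background corrections kept that order in all 5 genes. In the scanner's processed signals, which also differ in detrending and dye normalization, the dim Hmgb1 probe A_52_P323044 had a mean log2 ratio of 1.70 against 1.02 for the brightest, where the values used here were 0.52 and 0.92.

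**Figure D3:**
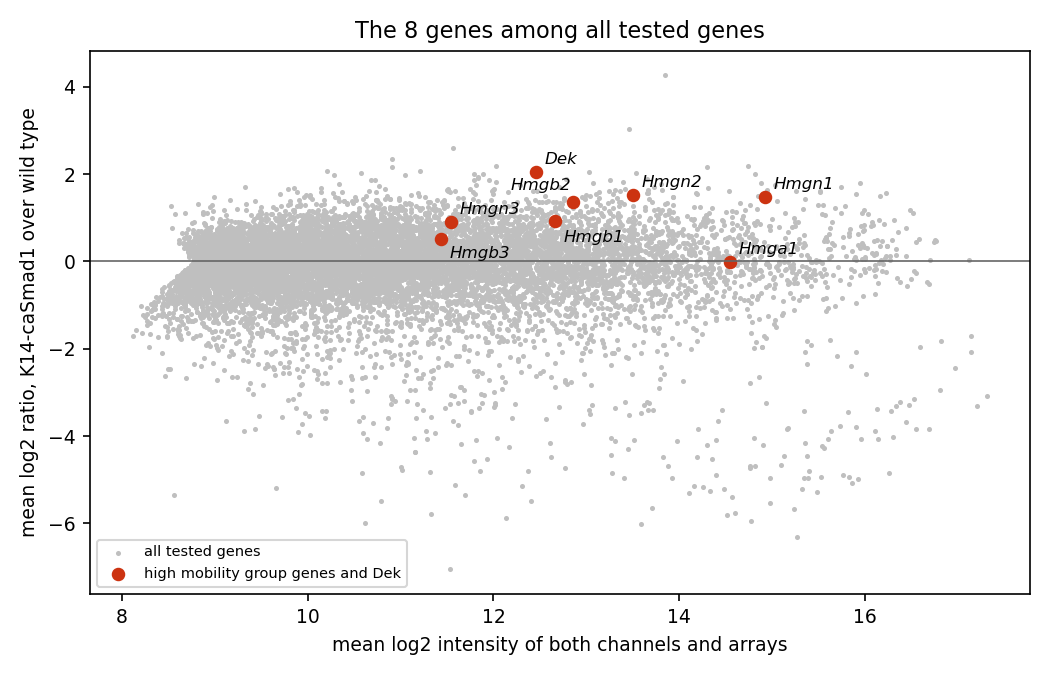
Mean log2 ratio of K14-caSmad1 over wild type (vertical axis) against mean log2 intensity of both channels and arrays (horizontal axis) for 11752 genes in grey and the 8 genes in red. Dek and the HMGN genes Hmgn1 and Hmgn2 lie along the upper edge of the cloud, and Hmga1 lies on the zero line at high intensity.

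By distance between the pairs of log2 ratios of the arrays, the 5 genes nearest to Dek were Cpe, a carboxypeptidase gene (2.06 and 2.06), Ect2, a regulator of cytokinesis (2.07 and 2.06), Nusap1, a spindle protein gene (1.99 and 2.05), and 2 features without a gene symbol. This likeness rests on 2 arrays of 1 comparison.

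The promoters of 7 of the 8 genes were in the RefSeq table (GRCm38.p6), with 9 start sites in all. The 250 bases before each start were searched on both strands. As the genes were picked for their rise in these arrays, this is a description, and shared control was not tested. The upstream stretches of Dek (chr13:47106222-47106471, minus strand), Hmgn1 (chr16:96127726-96127975, minus strand) and Hmgb2 (chr8:57511593-57511842, plus strand) are shown 5′ to 3′, with CCAAT or its complement ATTGG in capitals.
Dek: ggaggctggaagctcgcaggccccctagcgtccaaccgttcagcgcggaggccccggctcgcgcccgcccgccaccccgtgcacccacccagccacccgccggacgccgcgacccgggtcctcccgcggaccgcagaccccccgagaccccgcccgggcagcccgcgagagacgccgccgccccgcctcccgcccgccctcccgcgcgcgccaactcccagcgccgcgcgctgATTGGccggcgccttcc
Hmgn1: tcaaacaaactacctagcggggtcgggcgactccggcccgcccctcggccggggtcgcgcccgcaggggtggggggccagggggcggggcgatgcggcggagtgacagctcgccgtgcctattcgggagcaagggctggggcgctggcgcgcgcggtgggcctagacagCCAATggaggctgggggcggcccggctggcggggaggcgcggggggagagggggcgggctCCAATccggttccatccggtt
Hmgb2: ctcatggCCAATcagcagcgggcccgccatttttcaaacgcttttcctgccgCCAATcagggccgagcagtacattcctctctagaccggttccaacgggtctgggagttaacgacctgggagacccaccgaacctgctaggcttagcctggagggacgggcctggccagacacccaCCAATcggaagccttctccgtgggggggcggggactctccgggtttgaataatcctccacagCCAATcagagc
All are rich in G and C, with 81.2% for Dek, 76.0% for Hmgn1 and 60.4% for Hmgb2, against a median of 52.4% over 32851 windows of all genes. CCAAT, the box bound by the factor NF-Y, was found for 5 of the 7 genes (Dek, Hmgb1, Hmgb2, Hmgb3 and Hmgn1), in 5 of the 9 windows and in 33.8% of all windows. Hmgb2 held 4 matches, starting 243, 198, 73 and 11 bases before the start, and Hmgn1 held 2, at 81 and 21. The GC box GGGCGG was present for all 7 genes, in 8 of the 9 windows and in 32.7% of all windows. All 9 windows lay above the median of all windows in G and C, the lowest being Hmgb3 with 58.8%. The shares over all windows were not matched for this, and the 2 Hmga1 windows largely overlap. None of the E2F forms TTTCCCGC, TTTGGCGC, TTTCGCGC and TTTGCCGC occurred in the 9 windows, and 1.9% of all windows held one. GGCGCC, a GC-rich form bound by BMP Smads, occurred for Dek alone and in 9.6% of all windows. TATAAA occurred in none of the 9 windows and in 12.4% of all.

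Genes that work with these proteins were examined as 9 lists. Calls are limma's with Benjamini-Hochberg adjustment at 0.05, which 40.8% of all genes passed as higher and 46.3% as lower, so that counts of calls say little without their size. Over all lists 107 genes were measured, of which 68 passed as higher and 30 as lower, and 18 were 2-fold higher and 11 were 2-fold lower on both arrays. Their median log2 ratio was 0.31. For a gene that passed the filter through a single genotype, the direction adds no support.

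Other HMG family genes went both ways. Of 5 measured, 2 passed as higher and 3 as lower, with a median of -0.15 that turned to 0.08 with median centring, and Hmgn5 was the 1 gene with a 2-fold difference. HMG-box proteins of chromatin and organelles went both ways, 4 higher and 4 lower of 9 (median 0.04, or -0.10 where both channels had to be above background). Pbrm1, a subunit of a chromatin remodelling complex, had a log2 ratio of 1.37 (other probes 0.76 and 0.44). Tfam, which packages mitochondrial DNA, read -2.03 at its brightest probe but 0.81 at another, so its direction is not settled. Tox4 (-1.55, other probe -0.41) and the cell cycle repressor gene Hbp1 (-1.05, other probe -0.27) were lower. Of 10 HMG-box transcription factor genes, 4 passed as higher and 6 as lower (median -0.28, or -0.0024 with median centring, -0.08 without the detection filter and -0.15 when normexp used all spots). Tcf7, a nuclear effector of Wnt signalling, was the 1 gene with a 2-fold difference (-2.90, other probe -1.54).

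Linker histones, which HMGN proteins compete with, were lower at their brightest probes. All 5 measured genes passed as lower, 3 of them by 2-fold, with a median of -1.06. This median was -0.63 when the probes of a gene were averaged, -0.60 without the detection filter and -2.35 in the processed signals and in the deposited table. H1f2 had a log2 ratio of -1.06. H1f10 was at least 2.47-fold lower and H1f5 at least 1.20-fold lower, both not well above background in K14-caSmad1. These genes passed the filter through wild type alone, so their direction adds no support. H1f0, the linker histone of differentiating cells, read -2.32 at its brightest probe but 0.13 and 0.31 at 2 others, so its direction is not settled.

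Histone chaperones leaned upward, 15 passing as higher and 3 as lower of 19 (median 0.44, or 0.74 with median centring, in the processed signals and in the deposited table). Asf1b, a proliferation-linked partner of histones H3 and H4, read 1.42. The histone-binding gene Rbbp7 (1.37) and nucleophosmin, Npm1 (1.19, other probe 1.57), followed. Of 20 other chromatin architecture genes, 15 passed as higher and 2 as lower (median 0.30, or 0.61 with median centring). The topoisomerase gene Top2b (1.52), the scaffold protein gene Hnrnpu (1.14, other probe 0.58) and the cohesin subunit gene Rad21 (1.11) were 2-fold higher.

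Enzymes that modify or export HMG proteins and DEK gave 3 higher and 4 lower of 9 (median -0.03, or 0.20 with median centring). Parp1, which binds and modifies DEK, read -1.87 at its brightest probe and 0.32 at another. Of 6 measured receptors and partners of extracellular HMGB1, 3 were higher and 3 lower (median -0.51, or 0.18 where both channels had to be above background). The surface protein gene Cd24a was higher (1.22). The interleukin 1 receptor gene Il1r1 (-1.25) and the chemokine gene Cxcl12 (-1.21) were lower. Tlr9, a receptor for DNA, was at least 3.03-fold lower and not well above background in K14-caSmad1.

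Proliferation genes, chosen with earlier results of these arrays known, had 22 of 24 measured members passing as higher and 0 as lower. Of these, 9 were at 2-fold, and the list had a median of 0.84. This median was 0.69 with all spots in the normexp fit and 1.18 in the processed signals. It was 0.76 where both channels had to be above background and also without the detection filter. Bub1, among the 9, and Ccnb1, Kif11 and E2f1 passed the filter through K14-caSmad1 alone, so their direction adds no support. The helicase subunit gene Mcm4 (1.88), the ribonucleotide reductase genes Rrm2 (1.85) and Rrm1 (1.36), Birc5 (1.55) and Mcm6 (1.45) led. Their ratios lie in the range of Dek, Hmgn1, Hmgn2 and Hmgb2, and all are values of the same arrays. The summed level of the list, as linear normalized intensity, was 51130 and 50630 in wild type and 110800 and 107800 in K14-caSmad1. Its part in the HMG and Dek values was not tested.

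**Figure D4:**
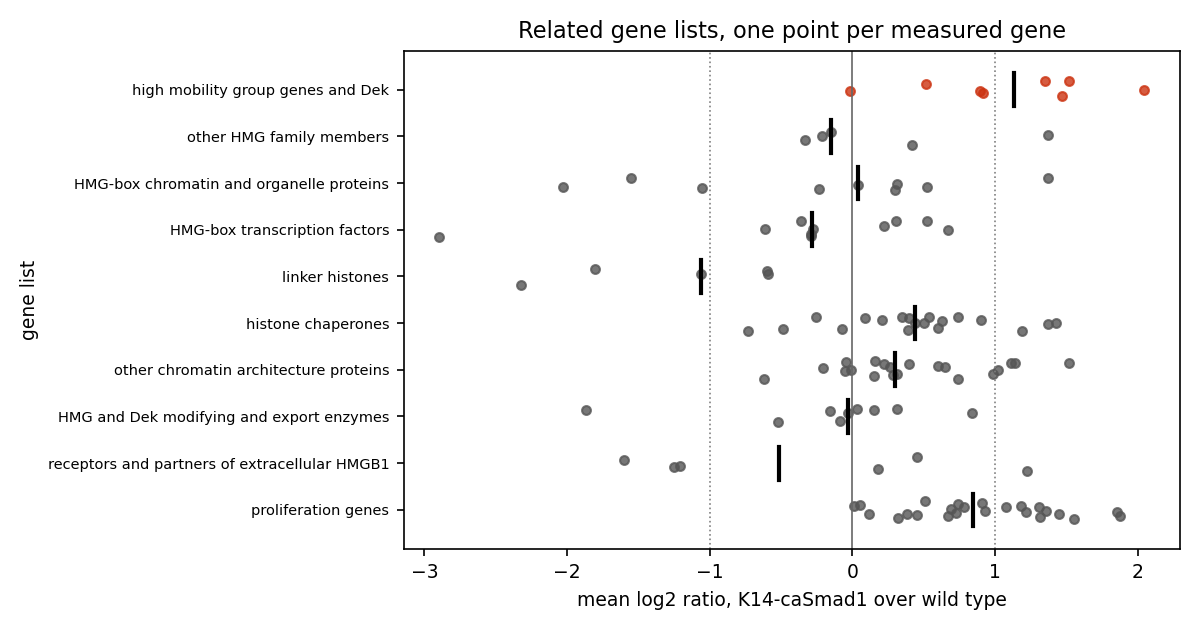
Mean log2 ratio of K14-caSmad1 over wild type (horizontal axis) for each measured gene of the 8 genes (red) and of 9 related lists (grey), each gene by its brightest tested probe, with black bars at the medians and dotted lines at 2-fold. Of the lists drawn, proliferation genes (median 0.84) lie nearest to the 8 genes (median 1.13), and linker histones lie lowest (median -1.06). Basal keratinocyte markers, which are not drawn, had a nearer median of 1.07.

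Cell type markers differed as well. All 7 basal keratinocyte markers passed as higher at their brightest probes (median 1.07), led by Krt5 (1.70), Trp63 (1.69) and Itga6 (1.50). Other probes read -0.78 for Trp63, -0.11 for Col17a1 and 0.86 for Itgb4, so the directions of Trp63 and Col17a1 are not settled. The summed level of the basal markers was 202400 and 193700 in wild type and 371200 and 388900 in K14-caSmad1. Suprabasal markers had 4 higher and 2 lower of 7 (median 0.52), led by Krt2 (4.26), Krt1 (1.80) and Dsg1a (1.25). When the probes of a gene were averaged, the suprabasal median was 1.16 and the basal one 0.72, so the order of these lists is not settled. Krt10, a suprabasal keratin gene, read 0.02 at its brightest probe and 2.29 at another. All 10 measured hair matrix and shaft markers were 2-fold lower (median -4.19), led by Krtap4-13 (-5.31), Krt33a (-5.27) and Krt86 (-5.20). Their summed level was 1394000 and 1448000 in wild type and 64210 and 59710 in K14-caSmad1. The defining keratinocyte markers were thus measured above background in both genotypes. The part of these markers in the HMG and Dek values was not tested.

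Of other cell types, 4 of 5 measured T cell markers and 4 of 6 Langerhans cell markers passed as higher, with medians of 0.27 and 0.10, led by Ptprc (0.90), Cd3g (0.88) and Cd207 (0.86). All 5 melanocyte, 2 endothelial and 3 erythroid markers measured passed as lower. Among them Tyrp1, Mlana, Mitf, Alas2 and the endothelial Vwf and Flt1 passed the filter through wild type alone, so their direction adds no support. Of 5 fibroblast markers 4 were lower, among them Col3a1 at least 3.16-fold, while Vim was higher (1.39), with a median of -1.35. These 4 were not well above background in K14-caSmad1. Where both channels had to be above background, Vim alone was left. In the summed level, T cell markers stood at 21540 and 19340 in wild type and at 29300 and 25630 in K14-caSmad1, and Langerhans cell markers at 38580 and 43000 against 45100 and 47670. Melanocyte markers stood at 6531 and 6239 against 3199 and 2748, and fibroblast markers at 9601 and 10140 against 17340 and 17360. The higher fibroblast sum comes from Vim alone, since the other 4 markers were lower. Endothelial markers stood at 1479 and 1442 against 792 and 749, and erythroid markers at 14880 and 13470 against 2339 and 2150. The filter on dim probes left out 1 T cell, 2 melanocyte, 2 fibroblast, 4 endothelial, 1 erythroid and 1 hair marker on the array. The part of these cell types in the HMG and Dek values was not tested either.

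**Figure D5:**
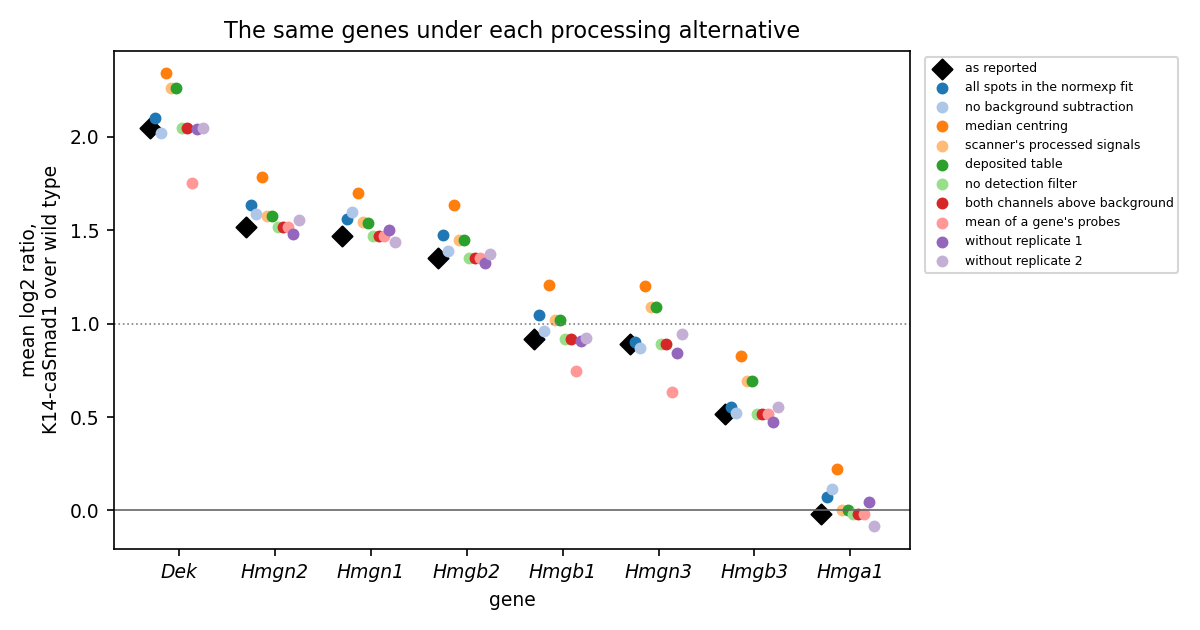
Mean log2 ratio of K14-caSmad1 over wild type (vertical axis) for each of the 8 genes as reported (black diamonds) and under 10 processing alternatives (coloured points), with a solid line at 0 and a dotted line at 2-fold. Dek, Hmgn2, Hmgn1 and Hmgb2 stay above 2-fold in all 10, Hmgb1 and Hmgn3 cross that line in some, and Hmga1 stays near 0. Not all 10 could move a gene. The other filters left every value as reported, and averaging probes moved only Dek, Hmgb1 and Hmgn3. Genes called 2-fold on both arrays stay so on each array alone, and the deposited table repeats the ratio of the processed signals.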

How the data were processed

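Gene expression in wild-type and K14-caSmad1 keratinocytes was measured on 2 two-colour Agilent arrays. Per the file headers, Agilent Feature Extraction 10.5.1.1 made the scanner files, with probe positions on mm9. As deposited they hold the unnormalized mean and local background intensity of each spot, and a processed intensity that the software had background-subtracted, detrended and dye-normalized. The authors' deposited table holds a log10 ratio of Cy5 over Cy3. It differed from the ratio of the processed signals by at most 0.00397, with medians of 0.023 and -0.01, so it was taken as that ratio, with no centring added.

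Background was corrected with limma 3.58.1 (R 4.3.3), by normexp with an offset of 50 and without 36 spots of replicate 1 on a non-uniform local background. Log2 ratios were normalized by loess (span 0.3) with weight 0 for control spots, outlier spots were left out (185 and 139 gene spots on replicates 1 and 2), and spots of a probe were averaged. Gene spots well above background numbered 15570 and 16144 in wild type and 14412 and 15800 in K14-caSmad1, and the number of arrays limits the precision. A probe was tested if well above background on both arrays in either channel (15127 probes), and each of 11752 genes was represented by its brightest probe. Levels per channel are log2 values after loess and Aquantile normalization. For a probe above background in 1 genotype only, "at least N-fold" sets its level against the higher of the dim level and the lowest level above background on the array, and is open to dye bias. limma's lmFit and eBayes tested the mean ratio against 0 over all genes, and the fit was tested on simulated data. Names were updated through RefSeq GRCm38.p6, by accession for 24844 probes, by symbol for 6045 and by synonym for 1810, and 8475 kept the file's name. The probe sequence of Hmgn2 is not reported here.

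The 8 genes, lists and rules were chosen with earlier results of these data known. Named are all 8 genes and up to 5 members of each list that were 2-fold different on both arrays. Up to 3 markers of each cell type and the 5 genes nearest to Dek are named too. Other list members and markers are named only to state a limit of the filter or of a further probe. The alternatives were other background corrections, median centring, the scanner's signals, the deposited table, other filters, the mean of a gene's probes, an intensity trend and each array alone.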

Additional observations from a re-analysis of the deposited data

How the results depend on the processing

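Across 10 processing alternatives the log2 ratio ran from 1.76 to 2.34 for Dek, 1.48 to 1.78 for Hmgn2, 1.44 to 1.70 for Hmgn1, 1.32 to 1.63 for Hmgb2, 0.75 to 1.21 for Hmgb1, 0.63 to 1.20 for Hmgn3, 0.47 to 0.82 for Hmgb3 and -0.08 to 0.22 for Hmga1, which was below 0 in 4 of them. The median over the 8 genes was 1.26 with all spots in the normexp fit, 1.17 without background subtraction, 1.42 under median centring, 1.27 both from the deposited table and from the processed signals, and 1.05 when a gene's probes were averaged. It was 1.12 and 1.16 without replicates 1 and 2. The other filters left the values of all 8 genes as reported, so they say nothing about how stable these are. Median centring moved the median of all genes from -0.03 to 0.22 and turned the split of 2-fold differences from 480 higher and 1153 lower to 1110 and 811, and limma's lower calls to 3577. With all spots in the normexp fit 303 genes were 2-fold higher and 473 lower, and limma called 1588 and 1684. Without background subtraction 764 were 2-fold lower. The scanner's processed signals gave 1260 higher and 1885 lower, and 1258 and 1884 came from the deposited table. Without a detection filter limma called 8779 and 8976. The related lists held 18 genes 2-fold higher, but 30 after median centring and 31 in the deposited table or the processed signals. Leaving out an array gave 530 to 547 genes higher, 1217 to 1219 lower and 19 to 22 in the lists. limma could not be run on a single array. No paired analysis was possible because each array already holds both genotypes and the ratio within it is the value tested.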

Other observations

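The array carries probes for copies of Hmgb1 outside the 8 genes. The probe named Hmg1l1, now Hmgb1-ps7, was above background in both channels and had log2 ratios of 0.71 and 0.81, near the 0.80 of the NM_010439 probe of Hmgb1. The probe of Hmgb1-rs17, above background on both K14-caSmad1 arrays and 1 wild-type array, had 0.25 and 0.36. How much of a copy's signal comes from Hmgb1 transcripts was not tested.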
